A study of Homo sapiens with 12 samples.

Results

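Expression of 10 genes of insulin and insulin-like growth factor (IGF) signalling was examined in the prostate cancer lines 22RV1 and LnCaP, both of human origin, with and without nicotine. The genes were IRS1, IRS2, INSR, IGF1R, IGF2R, IGFBP2, IGFBP3, IGFBP4, IGFBP5 and SHC2. They were listed by name, and the set was chosen by measured values of these arrays, since IRS1 was higher after nicotine in LnCaP. All of their probe sets were taken, 20 of the 22277 on the array, and the 10 genes stand among 11963 genes with a probe set of their own. A probe set is a group of short oligonucleotides on the array that together measure one transcript.

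The series holds 12 arrays in 4 groups of 3 replicates: untreated 22RV1, 22RV1 with 100 µM nicotine tartrate for 24 h, untreated LnCaP, and LnCaP with the same nicotine exposure. Both lines are established prostate cancer lines, and each derives from a single tumour. The labels name no vehicle for the controls and no separate cultures for the replicates, so the p-values reflect only how far these arrays scatter, and that scatter could be technical. Values are the authors' log2 expression values, on which a difference of 1 is a doubling of signal. Array medians lay between 6.61 and 6.71, arrays of a group correlated at 0.992 or more, and arrays of different lines at 0.933 at most. Of the squared deviations from the group means, 47.2% came from the 4 arrays numbered 3. The mean level of 8 luminal prostate genes lay between 9.26 and 9.89 on the untreated 22RV1 arrays and between 10.98 and 11.09 on the untreated LnCaP arrays. Of the 8, 6 were on the side of LnCaP, with a median difference of 1.13, and the keratin genes KRT18 and KRT8 on the side of 22RV1. A leukocyte list averaged between 4.69 and 5.04 on every array.

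Insulin and the IGFs are hormones that bind tyrosine kinase receptors, the insulin receptor encoded by INSR and the type 1 IGF receptor encoded by IGF1R. The active receptors phosphorylate adaptor proteins, the insulin receptor substrates and the SHC proteins, which pass the signal to PI3-kinase and AKT and to RAS and ERK. Outside the cell, IGF binding proteins hold most IGF and set how much reaches the receptor, and the type 2 receptor encoded by IGF2R takes IGF2 up for degradation. In the prostate this system is known as a growth and survival signal for epithelial cells.

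The promoter windows of the 3 adaptor genes are shown because the results turn on these genes. Each runs from 250 bases before to 50 bases after the gene's start in RefSeq (GRCh38.p14) and is written 5′ to 3′ on the gene's strand, which is the minus strand for all 3. Capitals mark GC boxes, the letters GGGCGG or their complement CCGCCC. IRS1 lies at chr2:226799771-226800070, IRS2 at chr13:109786534-109786833 and SHC2 at chr19:460984-461283.
IRS1: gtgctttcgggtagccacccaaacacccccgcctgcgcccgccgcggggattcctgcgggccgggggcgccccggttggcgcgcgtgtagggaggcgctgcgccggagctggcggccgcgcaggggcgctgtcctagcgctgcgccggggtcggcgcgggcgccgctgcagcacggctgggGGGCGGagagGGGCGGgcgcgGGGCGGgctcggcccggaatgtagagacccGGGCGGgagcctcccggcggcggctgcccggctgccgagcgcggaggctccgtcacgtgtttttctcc
IRS2: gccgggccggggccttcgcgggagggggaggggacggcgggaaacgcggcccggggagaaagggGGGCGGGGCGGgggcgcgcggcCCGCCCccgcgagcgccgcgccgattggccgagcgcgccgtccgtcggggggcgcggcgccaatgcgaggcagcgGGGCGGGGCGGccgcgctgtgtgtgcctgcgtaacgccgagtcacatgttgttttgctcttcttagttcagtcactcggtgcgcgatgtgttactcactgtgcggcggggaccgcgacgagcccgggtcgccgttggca
SHC2: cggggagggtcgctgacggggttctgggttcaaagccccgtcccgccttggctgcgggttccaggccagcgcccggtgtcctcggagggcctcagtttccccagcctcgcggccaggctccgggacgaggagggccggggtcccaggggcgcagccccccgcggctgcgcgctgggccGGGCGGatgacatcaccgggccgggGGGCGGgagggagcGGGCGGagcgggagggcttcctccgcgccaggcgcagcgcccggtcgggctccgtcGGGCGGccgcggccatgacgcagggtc
The IRS1 window held 47 CpG dinucleotides and 4 GC boxes, the IRS2 window 50 and 5, and the SHC2 window 39 and 4. Among 35116 RefSeq windows of the same 300 bases, the median was 14 CpG. As many CpG as in IRS1 occurred in 2.41% of windows, as many as in IRS2 in 1.29%, and as many as in SHC2 in 8.71%. A GC box, searched on both strands, occurred in 45.0% of all windows and in 10 of the 12 windows of the 10 genes. The FOXO site GTAAACA occurred in 3.42% of all windows and the TATA box TATAAA in 11.5%, and neither was found in the 3 windows shown. These are letter matches in a short window and say nothing of whether a factor binds there.

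IRS1, the adaptor that carries much of the signal from the insulin and IGF receptors to PI3-kinase, differed between the lines more than it differed with nicotine. Its level (204686_at) was 8.69, 8.57 and 8.31 in untreated 22RV1, and 8.70, 8.64 and 8.79 after nicotine. The untreated LnCaP arrays read 4.95, 5.20 and 4.66, and the treated ones 5.82, 5.49 and 5.82. Every LnCaP array lay below every 22RV1 array. Treated LnCaP arrays lay above all untreated ones, whereas the 22RV1 groups overlapped.

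**Figure D1:**
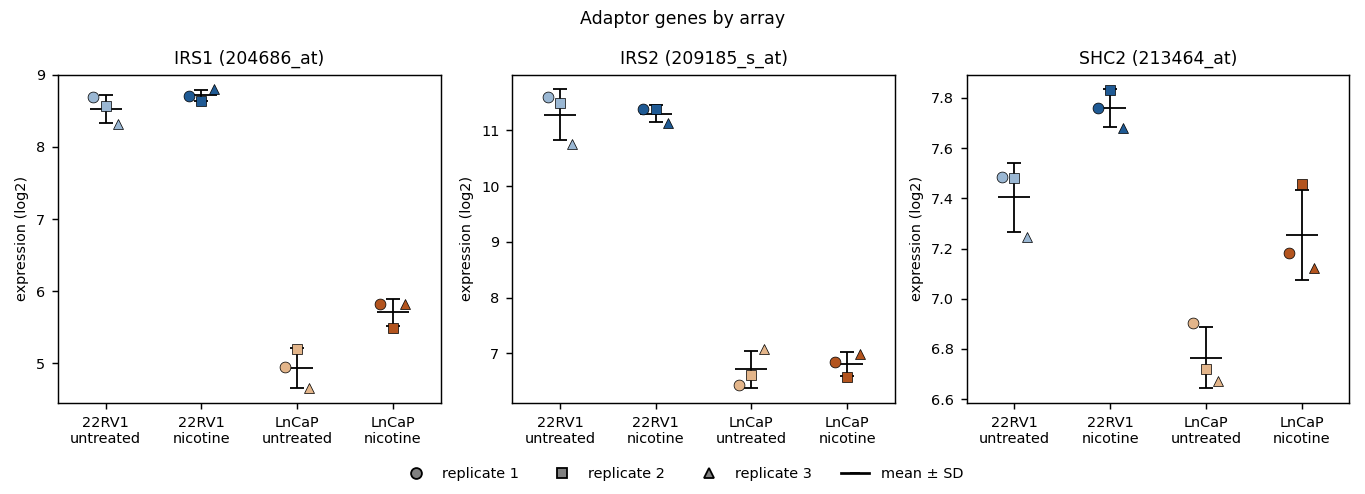
Level of IRS1, IRS2 and SHC2 (log2 expression, vertical axis) in each of the 12 arrays, by group; symbols give the replicate number and lines the mean ± SD of 3 arrays. IRS1 and IRS2 sit far lower in LnCaP than in 22RV1, and within LnCaP the treated arrays of IRS1 and SHC2 lie above the untreated ones.

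The nicotine difference of IRS1 in LnCaP served to choose the genes and is given as a description. It was 0.77 ± 0.14 (SE, n = 3 per group) in log2 units, a ratio of 1.71. By replicate number the differences were 0.87, 0.29 and 1.16, positive in all 3 and smallest for number 2. Leaving out the 4 arrays numbered 3 gave 0.58, and leaving out single arrays gave 0.63 to 0.90. In LnCaP, 0.471% of all 22277 probe sets were called at an adjusted p under 0.05 and 0.112% were called higher. IRS1 was within that call and SHC2 just outside it. Both genes were listed with a rise already known, so where they stand is no independent evidence. The call of IRS1 was kept without 22RV1 untreated replicate 3, 22RV1 nicotine replicate 3 or LnCaP untreated replicate 2, and lost without any of the other 9 arrays. Of 10 genes of cell division, 9 were called lower in LnCaP after nicotine, beside 0.359% of all probe sets. The median difference of the 10 was -0.63. Their mean level lay between 9.24 and 9.36 on the untreated LnCaP arrays and between 8.54 and 8.78 on the treated ones. In 22RV1, 0 of the 10 were called and 0 had a positive difference, with a median of -0.28. Their mean level there lay between 9.80 and 10.02 untreated and between 9.50 and 9.66 treated. The part of the division genes in the IRS1 difference was not tested.

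In 22RV1, the nicotine difference of IRS1 was 0.19 ± 0.14 (SE, n = 3 per group, 95% interval -0.13 to 0.50) and did not pass the test (limma, adjusted p = 0.999). By replicate number it was 0.0088, 0.072 and 0.48. The highest of these came from number 3, where the untreated array was the lowest of its group.

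Between untreated lines, IRS1 was 3.59 ± 0.14 lower in LnCaP, which is 12-fold (limma, adjusted p = 1.68e-09). Between the treated lines it was 3.00 ± 0.14 lower, or 8.02-fold (adjusted p = 7.56e-09). The order of the group means was treated 22RV1 at 8.71, untreated 22RV1 at 8.53, treated LnCaP at 5.71 and untreated LnCaP at 4.94. Of the neighbours in this order, the pair of 22RV1 groups overlapped. The line comparisons use the same LnCaP arrays as the nicotine difference, so these values are not independent of each other.

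IRS2, the second main insulin receptor substrate, showed the widest gap between the lines of the 10 genes. Its more strongly hybridising probe set (209185_s_at) read 11.59, 11.48 and 10.75 in untreated 22RV1 and 6.44, 6.62 and 7.09 in untreated LnCaP. After nicotine it read 11.39, 11.38 and 11.13 in 22RV1 and 6.86, 6.57 and 6.99 in LnCaP. The lines were far apart, and within each line the treated and untreated ranges overlapped. IRS2 was 4.56 ± 0.22 lower in untreated LnCaP, or 23.6-fold (limma, adjusted p = 7.88e-09), and 4.49 ± 0.22 lower in treated LnCaP (adjusted p = 7.88e-09). The other probe set (209184_s_at) gave 4.31 ± 0.21 and 4.47 ± 0.21 lower, and the probe sets correlated at 0.998 over the 12 arrays.

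With nicotine, IRS2 differed by 0.025 ± 0.22 in 22RV1 (95% interval -0.45 to 0.50, adjusted p = 0.999) on 209185_s_at. In LnCaP the difference was 0.092 ± 0.22 on the same probe set and -0.0028 ± 0.21 on 209184_s_at, as a description. The 22RV1 arrays numbered 3 had the lowest IRS2 of their line, with a mean of 10.94 against 11.49 and 11.43 for numbers 1 and 2. In LnCaP the arrays numbered 3 had the highest, 7.04 against 6.65 and 6.59.

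SHC2, an SHC family adaptor that links receptor kinases to RAS, read higher after nicotine in both lines. Its probe set (213464_at) read 7.49, 7.48 and 7.25 in untreated 22RV1 and 7.76, 7.83 and 7.68 after nicotine. In LnCaP it read 6.90, 6.72 and 6.67 untreated and 7.18, 7.46 and 7.12 after nicotine. In neither line did the treated and untreated arrays overlap. Of the 20 probe sets, this held for 1 in 22RV1 and for 2 in LnCaP, IRS1 and SHC2, against 11.3% and 15.3% of all probe sets. A rise averaged over both lines was known when SHC2 was listed, so its nicotine differences are given with no test: 0.35 ± 0.11 in 22RV1 and 0.49 ± 0.11 in LnCaP (SE, n = 3 per group). By replicate number they were 0.27, 0.35 and 0.44 in 22RV1 and 0.28, 0.74 and 0.45 in LnCaP. Probe sets with all treated arrays above all untreated ones made up 5.49% of all probe sets in 22RV1 and 6.81% in LnCaP. Between lines, SHC2 was 0.64 ± 0.11 lower in untreated LnCaP (limma, adjusted p = 0.000379) and 0.50 ± 0.11 lower in treated LnCaP (adjusted p = 0.00194).

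Of the 20 probe sets, 0 were called after nicotine in 22RV1, where limma called 0% of all 22277 probe sets and 1148 had an unadjusted p under 0.05. With array weights, 8 of all probe sets were called. The median difference of the 20 was 0.058, with a range of -0.17 to 0.35, against a median of -0.0023 over all probe sets. In LnCaP the 18 probe sets other than those of IRS1 and SHC2 differed by -0.24 to 0.19. The median of all 20 there was 0.020 against 0.0034 over all probe sets.

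**Figure D2:**
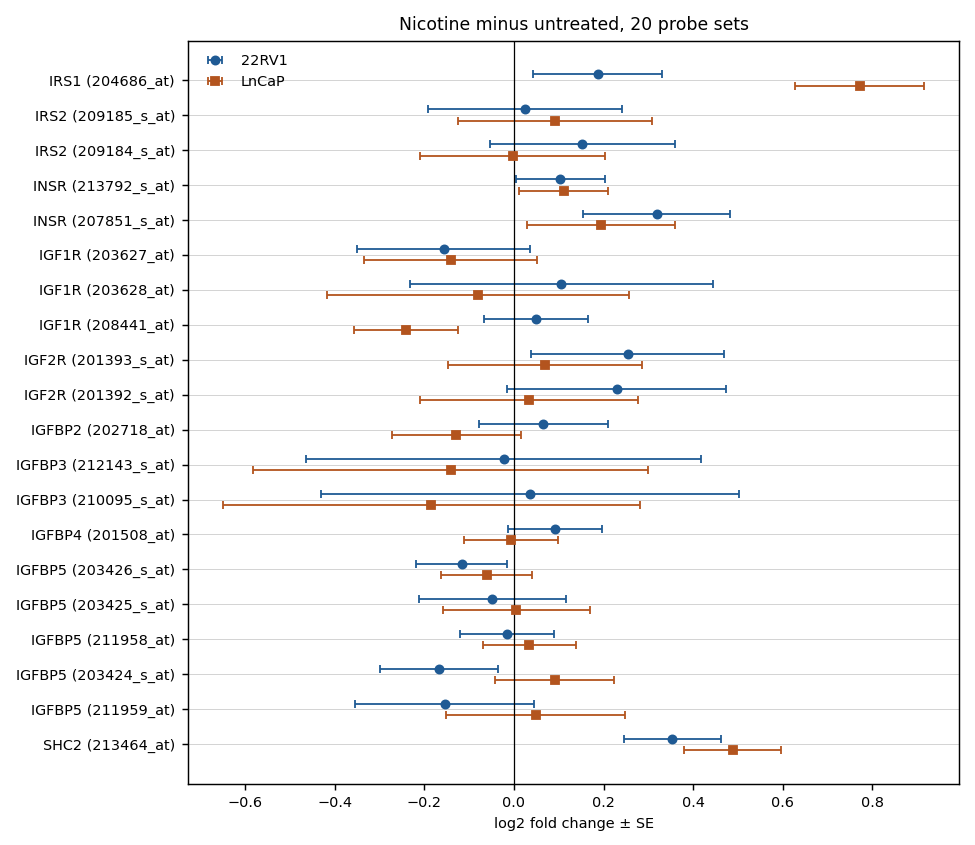
Nicotine minus untreated difference (log2 fold change ± SE, horizontal axis) of each of the 20 probe sets in 22RV1 (circles) and LnCaP (squares), 3 arrays per group. IRS1 in LnCaP at 0.77 and SHC2 in both lines lie farthest right of zero, and 0 of the 20 were called in 22RV1.

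INSR, the insulin receptor gene, was slightly lower in LnCaP on one of its 2 probe sets. The first (213792_s_at) read 8.69, 8.83 and 8.60 in untreated 22RV1 and 8.31, 8.42 and 8.32 in untreated LnCaP. After nicotine it read 8.83, 8.93 and 8.67 in 22RV1 and 8.52, 8.56 and 8.30 in LnCaP. The lines did not overlap in either condition. The difference was -0.36 ± 0.10 untreated (limma, adjusted p = 0.0107) and -0.35 ± 0.10 treated (adjusted p = 0.0113). The call was lost without 22RV1 untreated replicate 2 in the untreated comparison (adjusted p = 0.0522). In the treated comparison it was lost without 22RV1 nicotine replicate 2 (0.0531) or LnCaP nicotine replicate 3 (0.0536). The second probe set (207851_s_at) gave -0.14 ± 0.16 and -0.26 ± 0.16, neither called, with overlapping lines.

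After nicotine in 22RV1, INSR differed by 0.10 ± 0.10 on the first and 0.32 ± 0.16 on the second probe set (limma, adjusted p = 0.999 and 0.972). All 3 numbered pairs of 22RV1 were positive on both. The LnCaP values were 0.11 ± 0.10 and 0.19 ± 0.16, with 2 of 3 pairs positive on each.

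IGF1R, the type 1 IGF receptor gene, was not called in any of the 4 comparisons by any of its 3 probe sets. The first (203627_at) lay between 5.83 and 6.58 over the 12 arrays and the second (203628_at) between 5.24 and 6.73. The third (208441_at) lay between 4.30 and 4.81 and correlated with the first at -0.089. The line difference of 203627_at was 0.079 ± 0.19 untreated (95% interval -0.34 to 0.50) and 0.096 ± 0.19 treated (-0.33 to 0.52). With nicotine in 22RV1 it was -0.16 ± 0.19 (-0.58 to 0.26), so these data leave room for changes of that size.

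On 2 of the 3 IGF1R probe sets the replicate numbers ran in opposite order in the lines, and on 208441_at they ran in the same order. On 203628_at the arrays numbered 1, 2 and 3 averaged 6.65, 5.91 and 5.61 in 22RV1 and 5.36, 5.82 and 6.17 in LnCaP. The range over numbers, 1.04 in 22RV1, was wider than either nicotine difference of this probe set, 0.11 and -0.080. This probe set, with those of IGF2R and IGFBP3 below, was picked for the display of numbers after its values were seen.

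IGF2R, the receptor that clears IGF2 and sorts lysosomal enzymes, was the one receptor gene of the 10 called higher in LnCaP. On 201393_s_at it read 8.74, 8.58 and 8.44 in untreated 22RV1 and 9.45, 10.28 and 10.43 in untreated LnCaP. Treated arrays read 8.81, 8.73 and 8.99 for 22RV1, and 9.94, 10.01 and 10.42 for LnCaP. No 22RV1 array reached the lowest LnCaP array. The line difference was 1.46 ± 0.22 untreated, or 2.76-fold (limma, adjusted p = 0.000133), and 1.28 ± 0.22 treated (adjusted p = 0.000348). The other probe set (201392_s_at) gave 1.59 ± 0.24 and 1.39 ± 0.24, both called. Nicotine differences were 0.25 ± 0.22 in 22RV1 (95% interval -0.22 to 0.73, adjusted p = 0.999) and 0.069 ± 0.22 in LnCaP. On 201392_s_at the LnCaP arrays numbered 1, 2 and 3 averaged 8.75, 9.24 and 9.66, a range of 0.91, whereas those of 22RV1 ranged over 0.084.

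IGFBP3, the binding protein that carries most circulating IGF and is made by many epithelial cells, was lower in LnCaP and uneven among the 22RV1 arrays. On 210095_s_at it read 7.77, 9.56 and 8.49 in untreated 22RV1 and 7.45, 9.22 and 9.26 after nicotine. In LnCaP it read 6.47, 6.59 and 6.36 untreated and 6.45, 6.26 and 6.15 after nicotine. All 22RV1 arrays lay above all LnCaP arrays. The SD was 0.90 in untreated 22RV1 and 0.11 in untreated LnCaP. IGFBP3 was 2.13 ± 0.47 lower in untreated LnCaP, or 4.39-fold (limma, adjusted p = 0.00243), and 2.35 ± 0.47 lower in treated LnCaP (adjusted p = 0.00112). The other probe set (212143_s_at) gave 1.87 ± 0.44 and 1.99 ± 0.44 lower, and the probe sets correlated at 0.995.

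The nicotine difference of IGFBP3 in 22RV1 was 0.036 ± 0.47 on 210095_s_at (95% interval -0.98 to 1.05, adjusted p = 0.999). Its numbered pairs were -0.32, -0.34 and 0.76. The arrays numbered 1, 2 and 3 averaged 7.61, 9.39 and 8.87 in 22RV1, a range of 1.78, and 6.46, 6.42 and 6.26 in LnCaP, a range of 0.20.

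**Figure D3:**
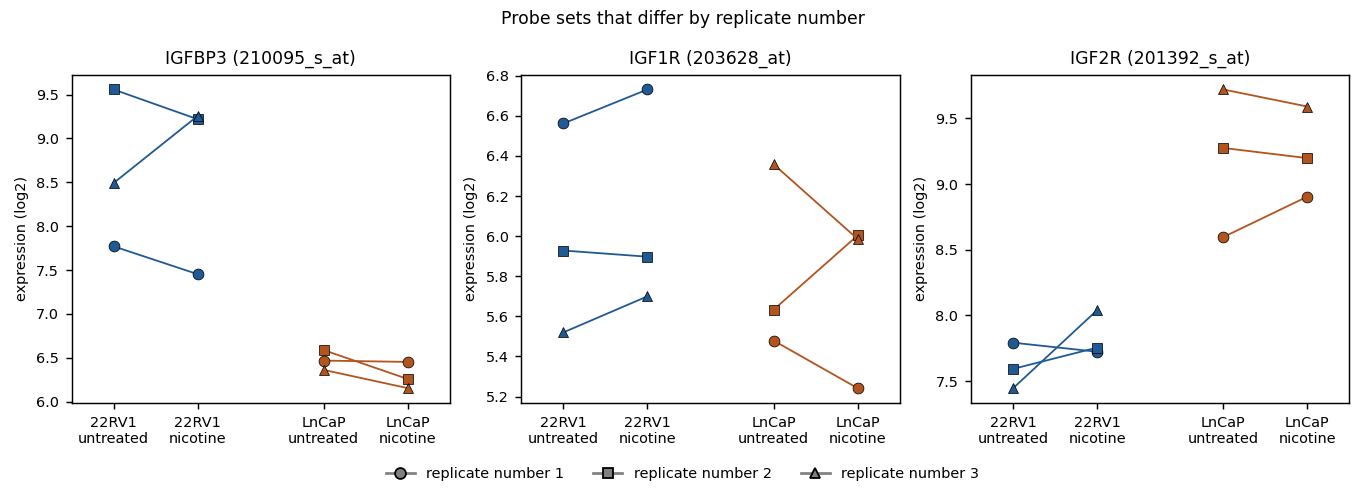
Level (log2 expression, vertical axis) of one probe set each of IGFBP3, IGF1R and IGF2R in the 12 arrays, with lines joining untreated and treated arrays of one number within a line. IGFBP3 in 22RV1, IGF1R in both lines and IGF2R in LnCaP differ more between numbers than between untreated and treated arrays.

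IGFBP2, a binding protein secreted by prostate epithelial cells, was lower in LnCaP. Its probe set (202718_at) read 11.89, 12.02 and 11.66 in untreated 22RV1 and 10.77, 10.98 and 10.72 in untreated LnCaP. After nicotine it read 12.06, 12.10 and 11.60 in 22RV1 and 10.67, 10.85 and 10.56 in LnCaP. The lines did not overlap. The difference was -1.03 ± 0.14 untreated, 2.05-fold lower (limma, adjusted p = 8.23e-05), and -1.23 ± 0.14 treated (adjusted p = 1.77e-05). With nicotine it differed by 0.066 ± 0.14 in 22RV1 (95% interval -0.25 to 0.38, adjusted p = 0.999) and by -0.13 ± 0.14 in LnCaP, where all 3 numbered pairs were negative.

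IGFBP5, which lies next to IGFBP2 on chromosome 2, gave mixed readings on its 5 probe sets. These correlated with each other at -0.39 to 0.54 over the 12 arrays. The one with the highest signal (203426_s_at) averaged 6.36 ± 0.10 in untreated 22RV1 and 6.597 ± 0.029 in untreated LnCaP (SD, n = 3), a difference of 0.23 ± 0.10 that was not called (limma, adjusted p = 0.0840). After nicotine the difference was 0.29 ± 0.10 and was called (adjusted p = 0.0343). That call was lost without 22RV1 nicotine replicate 1 (0.151), LnCaP nicotine replicate 2 (0.145) or LnCaP nicotine replicate 3 (0.0628). It was also lost in a trended and robust fit (0.0511), with only the groups compared (0.0799) and without the 4 arrays numbered 3 (0.0567). In contrast, 211959_at was 0.60 ± 0.20 lower in untreated LnCaP (adjusted p = 0.0285). This probe set is the dimmest of the 5, with means of 4.29 in untreated 22RV1 and 3.69 in untreated LnCaP. It was not called without 22RV1 untreated replicate 2 (0.130) or 3 (0.0663), or without LnCaP untreated replicate 1 (0.0849) or 3 (0.0717). Nor was it called without the 4 arrays numbered 3 (0.129). The probe sets therefore give no common direction for this gene.

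IGFBP4, a binding protein that inhibits IGF until it is cleaved, read between 4.93 and 5.49 over the 12 arrays (201508_at). It was 0.28 ± 0.10 higher in untreated LnCaP, just short of the call (limma, adjusted p = 0.0501), and 0.18 ± 0.10 higher in treated LnCaP (adjusted p = 0.196). The untreated difference was called under 7 of the 9 settings tried besides leaving out single arrays, among them median centring (0.0260) and quantile normalization (0.0229). With nicotine, IGFBP4 differed by 0.092 ± 0.10 in 22RV1 and by -0.0066 ± 0.10 in LnCaP.

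Across the 20 probe sets, 11 were called between the untreated lines, 2 higher and 9 lower in LnCaP, which is 55% against 43.7% of all probe sets. By gene, 7 were lower in LnCaP on at least one probe set and IGF2R was higher. After nicotine 11 were called again, 3 higher and 8 lower, against 46.2% of all probe sets (23.8% higher and 22.4% lower). The lines did not overlap on 14 of the 20 untreated and 12 treated, against 52.3% and 55.8% of all probe sets. The median difference of the 20 was -0.22 untreated and -0.31 treated, against 0.043 and 0.047 over all probe sets. Over all probe sets, 22.8% were called higher and 20.9% lower in untreated LnCaP.

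**Figure D4:**
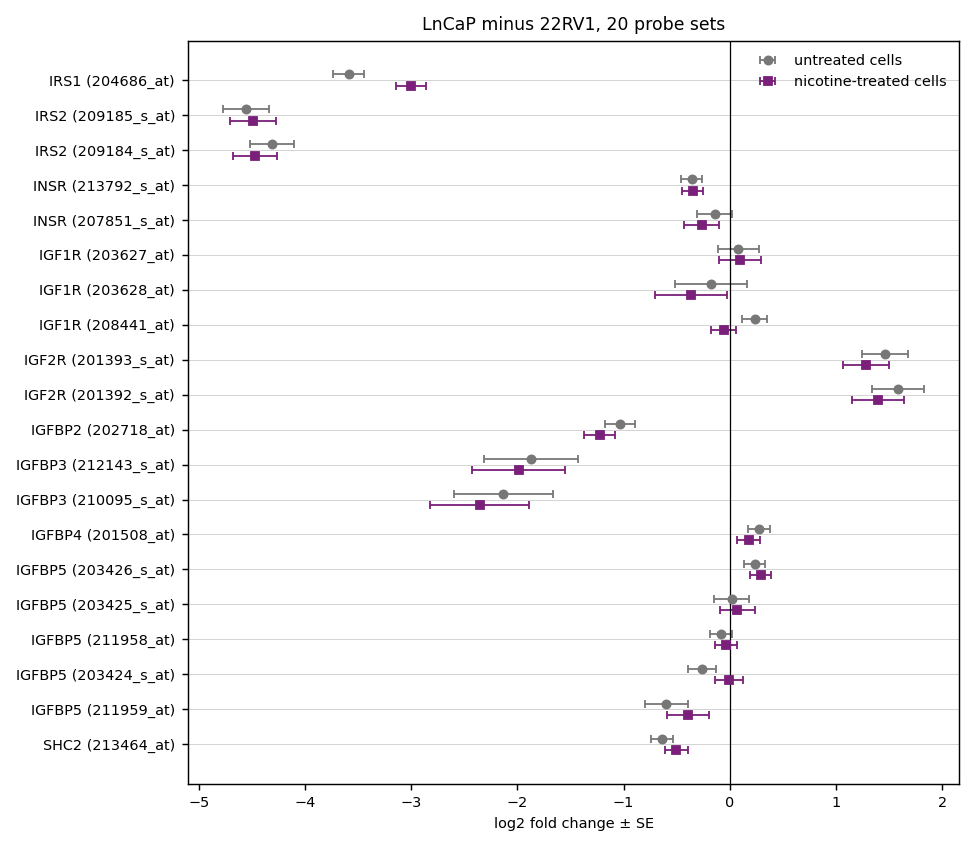
LnCaP minus 22RV1 difference (log2 fold change ± SE, horizontal axis) of each of the 20 probe sets in untreated (circles) and nicotine-treated cells (squares), 3 arrays per group. IRS1, IRS2 and IGFBP3 lie at the left, lower in LnCaP, and both IGF2R probe sets lie at the right.

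The genes whose probe sets followed IRS1 most closely over the 12 arrays, after the mean of each line was subtracted, were CCDC91 (r = 0.959), SERINC1 (0.942), TTC33 (0.940), RCBTB1 (0.930) and PCGF2 (0.910). For SHC2 they were HMBOX1 (0.939), BRSK2 (0.935), DIP2C (0.927), ZNF91 (0.922) and ST13 (0.921). On the values as deposited, where the line difference leads, RETREG2 followed IRS1 most closely at 0.994. The arrays share their line, treatment and number, so these are descriptions with no test.

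Around the 10 genes, 128 of 149 listed genes of the same pathway were measured, on 238 probe sets. After nicotine in LnCaP 3 of them were called, all higher, which is 1.26% against 0.471% of all probe sets. As the lists were drawn up with earlier results of these data known, that share is no independent evidence. The 3 called probe sets were 2 of GRB10 and 1 of CPE. GRB10 is an adaptor that binds the insulin and IGF receptors and dampens their signal. CPE is the carboxypeptidase that trims prohormones such as insulin. GRB10 (210999_s_at) read 10.17, 9.94 and 10.36 in untreated LnCaP and 10.84, 11.00 and 11.00 after nicotine. The treated and untreated arrays did not overlap. GRB10 rose by 0.79 ± 0.10 on this probe set (limma, adjusted p = 0.0197) and by 0.83 ± 0.13 on 209410_s_at (adjusted p = 0.0247). On 209409_at and 215248_at the values were 0.79 ± 0.21 and 1.12 ± 0.23 and did not pass (adjusted p = 0.127 and 0.0660). With the replicate number as a block these were called as well (0.0101 and 0.0110). In the fit with no block, 210999_s_at and 209410_s_at lost their calls when LnCaP nicotine replicate 1 (0.0532 and 0.0582) or 2 (0.104 and 0.147) was left out. The same held for LnCaP untreated replicate 1 (0.0587 and 0.0684). The 9 division genes called lower in the same arrays were measured beside GRB10, and their part was not tested.

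CPE (201116_s_at) read 9.94, 9.78 and 9.73 in untreated LnCaP and 10.28, 10.37 and 10.16 after nicotine. It rose by 0.45 ± 0.08 (limma, adjusted p = 0.0436), and its second probe set (201117_s_at) gave 0.52 ± 0.13 without a call (adjusted p = 0.118). This rise was known when the list was drawn up and is no independent evidence. The call was kept without 22RV1 nicotine replicate 3 or LnCaP nicotine replicate 3 and lost without any of the other 10 arrays, with adjusted p up to 0.207. In 22RV1, CPE read 10.13, 10.14 and 10.12 untreated and 10.17, 10.06 and 10.18 after nicotine, which overlap.

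After GRB10 and CPE, the pathway genes with the smallest p-values in LnCaP were STC1, a stanniocalcin that inhibits the protease releasing IGF from IGFBP4, at -0.47 ± 0.12 (limma, adjusted p = 0.121), and SOS2, a RAS activator, at 0.36 ± 0.09 (adjusted p = 0.128). With the replicate number as a block, 13 of the 238 probe sets were called, 12 higher and 1 lower. These 13 belonged to 9 genes. Over all 22277 probe sets the same block called 847, 350 higher and 497 lower. The lists were drawn up with earlier results of these data known, so these counts are no independent evidence. TXNIP (0.71), CITED2 (0.54) and FOXO3 (0.46) of the FOXO list were higher, as were SOCS2 (0.58) and PIK3IP1 (0.31) of the inhibitors and SESN1 (0.42), a sestrin that restrains mTOR. The death ligand gene TNFSF10, also of the FOXO list, was lower (-0.56), with dim means of 4.48 untreated and 3.92 treated. Of the FOXO list, the block thus called 3 probe sets higher and 1 lower. TXNIP, CITED2, SOCS2 and TNFSF10 were called on only part of their probe sets. Under the same block, SHC2 and IRS1 were the 2 probe sets of the 10 genes within the call, given here as a description.

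In 22RV1, 0 of the 238 were called after nicotine (limma), and 8 had an unadjusted p under 0.05. The smallest belonged to STC2, the other stanniocalcin, at 0.38 ± 0.12 (adjusted p = 0.850), and to TSC1, a brake on mTOR, at 0.22 ± 0.08 (adjusted p = 0.882). Next came the adaptor NCK1 at 0.18 ± 0.07 and the receptor tyrosine phosphatase PTPRF at 0.28 ± 0.12 (limma, adjusted p = 0.942 and 0.955). GRB10 differed there by 0.15 to 0.41 over its 4 probe sets.

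Between the untreated lines 115 of the 238 were called (48.3%), 72 higher and 43 lower in LnCaP, and between the treated lines 117 (49.2%), 72 higher and 45 lower. Over all probe sets, 43.7% were called untreated (22.8% higher and 20.9% lower) and 46.2% treated. Of 38 probe sets of PI3-kinase and AKT genes, 18 were higher and 1 lower in untreated LnCaP. PIK3CD, a catalytic PI3-kinase subunit best known from leukocytes, read 5.76, 5.50 and 5.51 in untreated 22RV1 and 9.68, 9.66 and 9.74 in untreated LnCaP. The difference was 4.10 ± 0.17 (limma, adjusted p = 2.38e-09), and the other PIK3CD probe set gave 1.58, also called. PIK3R3, a regulatory PI3-kinase subunit, was 2.54 ± 0.19 higher (adjusted p = 3.71e-07). The list's median was 0.23 against 0.043 over all probe sets.

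Of 34 probe sets of other receptors and adaptors, 6 were higher and 17 lower in untreated LnCaP, with a median of -0.33. Over all probe sets 22.8% were called higher and 20.9% lower. GRB7 and DOK4, adaptors that bind activated receptor kinases, were 1.99 ± 0.10 and 1.87 ± 0.13 lower (limma, adjusted p = 1.38e-08 and 1.98e-07). The 3 probe sets of DOK4 gave -1.87 to -0.84, all called. Among 46 probe sets of feedback and inhibitor genes 13 were higher and 5 lower, and GRB10 was 3.10 ± 0.21 higher (adjusted p = 1.59e-07). Its 4 probe sets gave 1.87 to 3.10, all called.

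Of 32 probe sets of FOXO factors and their targets, 10 were higher and 10 lower in untreated LnCaP, beside 22.8% and 20.9% of all probe sets. CCNG2, a cyclin that FOXO factors induce, was 2.26 ± 0.21 higher, and PDK4, the kinase that shuts off pyruvate dehydrogenase in fasting, was 2.45 ± 0.24 lower (limma, adjusted p = 3.21e-06 and 3.63e-06). CITED2, a transcriptional co-regulator, was 2.31 ± 0.30 lower (adjusted p = 4.57e-05). In the TSC, RHEB and mTOR list 12 of 34 were higher and 4 lower, led by SESN1 at 3.06 ± 0.15 higher (adjusted p = 1.19e-08). DDIT4, a stress-induced inhibitor of mTOR, was 2.14 ± 0.25 higher (adjusted p = 1.89e-05). Of 24 probe sets of ligands and ligand control, 7 were higher and 5 lower. IGF1 (209541_at) read 7.19, 7.77 and 6.95 in untreated 22RV1 and 4.27, 4.56 and 4.68 in untreated LnCaP. It was 2.80 ± 0.21 lower (adjusted p = 4.01e-07). The 4 probe sets of IGF1 gave -2.80 to -0.85, all called. Of 14 probe sets of other binding proteins and CCN relatives, 3 were called, among them the matricellular gene CCN2 at 2.60 ± 0.53 lower (adjusted p = 0.00161). In the RAS and ERK list 4 of 16 were higher and 0 lower (limma), with 4 at an unadjusted p under 0.05. That is 25% called, against 43.7% of all probe sets (22.8% higher and 20.9% lower).

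**Figure D5:**
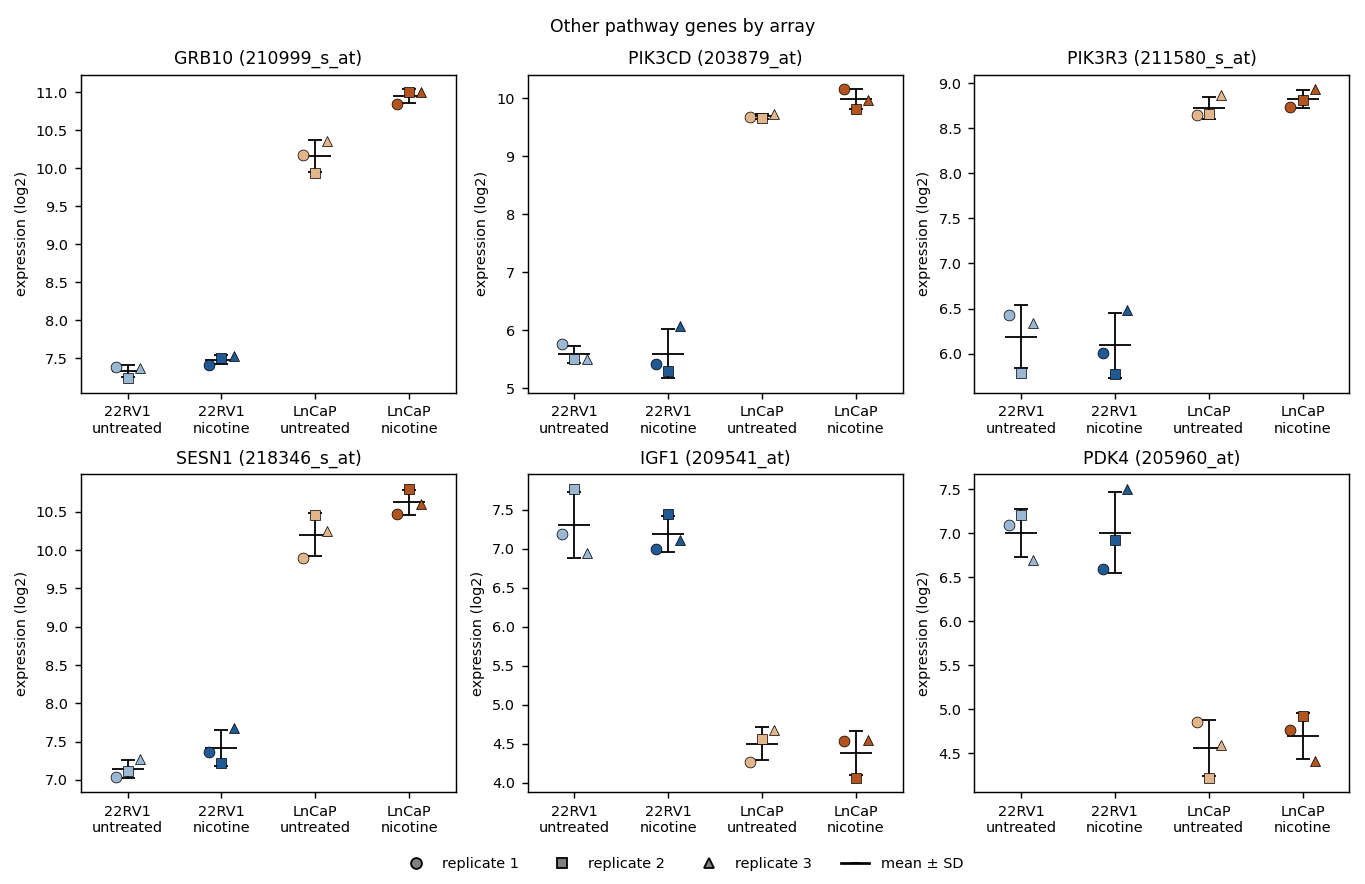
Level (log2 expression, vertical axis) of GRB10, PIK3CD, PIK3R3, SESN1, IGF1 and PDK4 in each of the 12 arrays, by group; symbols give the replicate number and lines the mean ± SD of 3 arrays. GRB10, PIK3CD, PIK3R3 and SESN1 are higher in LnCaP and IGF1 and PDK4 lower, and GRB10 is higher in treated than in untreated LnCaP.

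After nicotine the same comparison gave PIK3CD at 4.39 ± 0.17, GRB10 (209410_s_at) at 3.52 ± 0.13 and SESN1 at 3.21 ± 0.15 higher in LnCaP (limma, adjusted p = 1.29e-09, 7.44e-10 and 6.99e-09). PIK3R3 was 2.73 ± 0.19 higher. PIK3R1, the main regulatory PI3-kinase subunit, was 2.41 ± 0.20 higher and SOCS2, a suppressor of cytokine and growth hormone signalling, 2.34 ± 0.24 higher. IGF1 was 2.80 ± 0.21 lower, PDK4 2.31 ± 0.24 lower and CCN2 2.22 ± 0.53 lower. CITED2 was 1.88 ± 0.30 lower, GRB7 1.83 ± 0.10 lower and DOK4 1.60 ± 0.13 lower. Over all their probe sets, PIK3CD gave 2.04 to 4.39, GRB10 2.64 to 3.52, IGF1 -2.80 to -0.73 and DOK4 -1.60 to -0.81.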

How the data were processed

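Total RNA was labelled with biotin and hybridised to Affymetrix arrays, one array per sample, per the labels' protocols. The authors deposited log2 expression values for 22277 probe sets on 12 arrays. How they were normalized is not given in the sources used here. No filter or further scaling was applied. With so few arrays precision is limited: a difference had a median standard error of 0.11.

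Probe sets were named from the platform annotation: 19070 had 1 gene symbol, 1043 several and 2164 none. Only those with 1 symbol were named, and updating symbols through the Entrez identifier changed 0. The fit covered every probe set and array and used limma 3.58.1 (R 4.3.3, functions lmFit and eBayes, 4 group means, two-sided, Benjamini-Hochberg over all 22277 probe sets). A probe set was called at an adjusted p under 0.05, and "rose", "higher" or "lower" in counts refers to that call. Standard errors and 95% intervals are those of the moderated fit. The fit was tested on simulated data.

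The 10 genes, the lists and the rules were chosen with earlier results of these data known. Every probe set of the 10 genes is named. Other pathway genes were named where called (up to 6 in each direction and comparison, by size) or among the 4 genes with the smallest p-values in each nicotine comparison, and those called only with the block were named besides. Between lines, such a gene is given by its called probe set with the largest difference. Promoter windows came from RefSeq (GRCh38.p14), matched by symbol for all 10 genes.

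Replicates carry the same numbers in every group. The deviations from the group means of untreated and treated arrays with one number correlated at 0.445, 0.424 and 0.626 in 22RV1 and at 0.358, 0.179 and 0.554 in LnCaP. All exceeded 0.1, but so did pairs with different numbers. In 22RV1, untreated replicate 1 with treated replicate 2 gave 0.199, and untreated replicate 2 with treated replicate 1 gave 0.249. The cut of 0.1 thus does not separate pairs by number. Each untreated array of 22RV1 correlated best with its own number, but LnCaP untreated replicate 2 did not. The replicate block takes the numbers as pairs within a line, which the data leave unsettled for LnCaP. The values given come from the fit without this block unless the block is named. LnCaP untreated replicate 2 correlated more with treated replicate 1 (0.257). Alternatives were a replicate block, array weights, median centring, quantile normalization, a trended and robust fit, 1 probe set per gene, a filter on the dimmest 25% of probe sets, only the groups compared, and leaving out arrays.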

Additional observations from a re-analysis of the deposited data

Results flagged for a closer look

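SOCS2, a feedback inhibitor of growth hormone and cytokine receptors, had nicotine differences of opposite sign in the lines on one of its 2 probe sets. On 203373_at the treated minus untreated difference of same-numbered arrays came to -0.026, -0.29 and -0.081 for 22RV1, and to 0.45, 0.31 and 0.24 for LnCaP. The mean difference was 0.47 larger in LnCaP, on the log2 scale. All 3 pairs of one line were negative and all 3 of the other positive, and this difference between the lines was not tested. The other probe set gave mean differences of the same sign, 0.099 in 22RV1 and 0.58 in LnCaP.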

How the results depend on the processing

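With the replicate block, the calls after nicotine in LnCaP went to 2 of the 20 probe sets, 13 of the 238 pathway probe sets and 847 of all. This block takes same-numbered arrays as pairs, which the data leave unsettled in LnCaP. With only the groups compared the calls went to 0, 0 and 2. Without the 4 arrays numbered 3, 0 of the 20 and 5 of the 238 were called. Between the lines, same-numbered arrays correlated at 0.079 to 0.23, not all over 0.1. There 22RV1 untreated replicate 1 correlated best with LnCaP untreated replicate 2 (0.11), so pairing by number was not shown between lines. A block by number across the lines called 14 of the 20 untreated, adding IGF1R 208441_at, IGFBP4 and IGFBP5 203426_s_at (adjusted p = 0.0159, 0.0486 and 0.0348), and 11 treated. After nicotine in LnCaP, median centring and quantile normalization each left 0 of the 20 called. Array weights called 165 of all probe sets in LnCaP and 8 in 22RV1, and the trended and robust fit 177 in LnCaP. With 1 probe set per gene, 1 pathway gene was called in LnCaP, CPE (limma, adjusted p = 0.0354). GRB10 then stood as 209409_at, which was called neither there (0.107) nor in the main fit (0.127). In each line comparison 66 of 128 pathway genes were called. Of the 11963 genes tested in all, 5719 (untreated) and 5973 (treated) were called. The causes of the other shifts were not tested. Leaving out one array at a time called 0 to 1 of all probe sets in 22RV1 and 1 to 134 in LnCaP. Of the 20 it called 0 to 1 in LnCaP, 9 to 12 between untreated and 9 to 11 between treated lines. Of the 238 it called 0 to 4, 108 to 117 and 103 to 125, and of all probe sets 8604 to 9911 and 9167 to 10412 between lines. The line calls of IRS1, IRS2, SHC2, IGF2R, IGFBP2 and IGFBP3 were kept under every setting and with every array left out.

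Signs turned only for differences that were not called. In 22RV1 after nicotine, array weights gave IRS2 209185_s_at -0.078, IGF1R 208441_at -0.025, IGFBP3 210095_s_at -0.77 and IGFBP5 203425_s_at 0.019. Without number 3, IRS2 209185_s_at gave -0.15, IRS2 209184_s_at -0.046, IGFBP3 210095_s_at -0.33 and IGFBP5 203425_s_at 0.028. Between untreated lines, IGFBP5 203425_s_at gave -0.037 with weights and -0.14 without number 3, and IGF1R 203627_at gave -0.18 without number 3. Between treated lines, IGF1R 203627_at gave -0.061 without number 3. Median centring there gave IGF1R 208441_at 0.0014, IGFBP5 211958_at 0.026 and IGFBP5 203424_s_at 0.055, the last also 0.014 with weights and 0.019 without number 3.

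Leaving out single arrays turned signs as well. After nicotine in 22RV1 the ranges were -0.24 to 0.18 for IRS2 209185_s_at, -0.15 to 0.36 for IRS2 209184_s_at, -0.33 to 0.046 for IGF1R 203627_at, -0.20 to 0.39 for IGF1R 203628_at and -0.059 to 0.14 for IGF1R 208441_at. They were -0.034 to 0.23 for IGFBP2, -0.37 to 0.57 for IGFBP3 212143_s_at, -0.38 to 0.63 for IGFBP3 210095_s_at, and for IGFBP5 -0.089 to 0.025 on 203425_s_at, -0.12 to 0.098 on 211958_at and -0.36 to 0.035 on 211959_at. In LnCaP after nicotine, where differences carry no test, signs turned for 9 of the 20 probe sets under at least one setting or array left out. Ranges with single arrays left out were -0.046 to 0.28 and -0.077 to 0.054 for IRS2, -0.25 to 0.19 for IGF1R 203628_at, -0.23 to 0.26 and -0.27 to 0.30 for IGF2R, and -0.073 to 0.071 for IGFBP4. The other 3 were of IGFBP5. IGF1R 203628_at gave 0.067 without number 3. Between untreated lines IGF1R ranged from -0.095 to 0.28 on 203627_at and from -0.45 to 0.099 on 203628_at, and IGFBP5 from -0.15 to 0.15 on 203425_s_at and from -0.19 to 0.030 on 211958_at. Between treated lines IGF1R 208441_at ranged from -0.15 to 0.050, and IGFBP5 from -0.11 to 0.18 on 203425_s_at, -0.067 to 0.029 on 211958_at and -0.096 to 0.11 on 203424_s_at.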
